A study of Mus musculus with 12 samples.

Results

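Of 18631 genes tested on 12 mouse microarrays, 10 genes for lipoprotein handling and for the uptake of dying cells and debris were followed: Apoe, Apoc2, Lpl and Cd36, the receptors Trem2, Mertk and Axl, the ligands Gas6 and Lgals3, and Gpnmb. Members were the probes that carried 1 of these symbols on the array. They were 11 probes, 1 for each gene except Lpl, for which the brighter of its pair was used. All 10 genes passed the filter, for which every array of 1 group or more had to show the probe well above background. Mertk and Cd36 passed it through the CNS groups alone.

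The arrays held RNA of mouse CD4+ T cells in 4 groups of 3, with replicates from 3 separate experiments. The first group was splenic naive CD4+ T cells of the B6.2d2 strain, which carries a transgenic T cell receptor for myelin oligodendrocyte glycoprotein (MOG). The second was Th17 cells, the interleukin-17 producing helper type, made from such naive cells in culture. The third was taken from the CNS of RAG1-/- mice that had received these Th17 cells and had developed experimental autoimmune encephalomyelitis (EAE, a mouse model of multiple sclerosis). RAG1-/- hosts cannot form mature lymphocytes but keep macrophages, monocytes and microglia. The fourth was CD4+ T cells from the CNS of wild-type C57BL/6 mice with EAE after immunisation with the MOG35-55 peptide, so its T cell receptors were not those of 1 transgene and its cells had not been cultured. Age, sex, the number of animals behind each RNA, and the means and purity of the cell isolation were not given in the sources used here.

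Apolipoproteins coat lipid particles and direct them to receptors and lipases. ApoE is made by macrophages, astrocytes and activated microglia, ApoC-II is the cofactor of lipoprotein lipase (Lpl), and CD36 is a scavenger receptor for oxidised lipoproteins and long-chain fatty acids. TREM2 binds lipids and apoE on myeloid cells and signals through the adaptor DAP12 (Tyrobp). MerTK and Axl are receptor kinases that recognise dying cells through the bridging ligand Gas6. Galectin-3 (Lgals3) is a sugar-binding protein abundant in phagocytes, and GPNMB is a glycoprotein of lysosomes and melanosomes that rises in lipid-laden macrophages. In demyelinating tissue these genes are best known from phagocytes that take up myelin.

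The values are signals of 60-base probes, and 2 probes that lie in coding sequence are shown because every Apoe value and the check of Lpl rest on them. The Apoe probe, spotted 10 times on each array, lies at chr7:20281732-20281791 (mm9, minus strand), and the other Lpl probe at chr8:71425050-71425109 (mm9, plus strand). Both are printed as the array design gives them, 5′ to 3′.
Apoe probe: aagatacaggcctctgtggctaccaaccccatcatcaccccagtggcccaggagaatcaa
Lpl probe: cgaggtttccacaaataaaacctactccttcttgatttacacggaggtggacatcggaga
Promoters were examined because the 10 genes were all high in the same groups. RefSeq windows of 300 bases (GRCm38.p6, 250 before to 50 after the start) matched 9 of the 10 genes by symbol, in 11 windows since Apoe has 3 starts. Lpl was not matched. On both strands, GAGGAAGT (a PU.1 site), TCACGTGA and TCATGTGA (E-box and M-box sites of the MiT family) and the LXR direct repeat (AGGTCA, 4 free bases, AGGTCA) were in 0 of the 11 windows, against 3.2%, 0.974%, 0.986% and 0.0152% of all 32851 windows. TGACTCA, the AP-1 site, was in 1 member's window, that of Gpnmb, and in 5.2% of all windows. It began at base 9 counted from 1 at the start, within chr6:49036515-49036544 (GRCm38.p6, plus strand), capitals marking the match.
Gpnmb: ccaggggcaagTGACTCAtgagcacgagtt
The shorter PU.1 core GAGGAA, which is part of GAGGAAGT and was added after the first search, was in 4 of the 11 windows, of 3 genes, and in 28.3% of all windows. E-box cores CACGTG, part of TCACGTGA, were in 0 of the 11 and in 7.15% of all. Of the 3 Apoe windows 2 held GAGGAA, and the one at the outermost start is shown. The 250 bases before the start are shown for each of the 3 genes with the core in capitals (TTCCTC is its complement): Apoe at chr7:19699189-19699438, minus strand, Trem2 at chr17:48346151-48346400, plus strand, and Axl at chr7:25788734-25788983, minus strand (GRCm38.p6).
Apoe: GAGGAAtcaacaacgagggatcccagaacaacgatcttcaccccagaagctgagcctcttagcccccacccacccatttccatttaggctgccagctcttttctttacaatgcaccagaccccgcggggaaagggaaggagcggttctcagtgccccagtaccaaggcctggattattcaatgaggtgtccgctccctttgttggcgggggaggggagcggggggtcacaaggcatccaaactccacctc
Trem2: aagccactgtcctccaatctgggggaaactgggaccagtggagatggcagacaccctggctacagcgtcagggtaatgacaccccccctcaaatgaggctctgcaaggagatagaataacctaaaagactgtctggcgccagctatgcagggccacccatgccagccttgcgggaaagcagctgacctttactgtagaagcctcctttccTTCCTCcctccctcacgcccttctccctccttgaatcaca
Axl: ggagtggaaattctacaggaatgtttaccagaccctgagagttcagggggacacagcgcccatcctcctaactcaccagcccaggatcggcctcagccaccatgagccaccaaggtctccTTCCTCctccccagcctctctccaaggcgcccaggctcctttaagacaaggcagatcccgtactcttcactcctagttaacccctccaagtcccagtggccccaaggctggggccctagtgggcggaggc
A match describes letters, and binding was not measured. The GC content of these 250 bases ran from 43.2% in Cd36 to 66% in Lgals3, against a median of 52.4% over all windows.

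Levels below are the log2 of the processed signal after subtraction of that array's 75th percentile, so 0 is the signal that 75% of probes stayed under, and a difference of 1 is a 2-fold change. Between 57.0% and 64.9% of probes were well above background on an array, and the dimmest such probes lay at −5.95 to −5.17. Throughout, above background is short for well above it, and below background means only that a probe was not well above it. Replicates correlated across the genes tested at 0.954 to 0.991. T cell core genes, such as Cd3e and Lck, were well above background on all arrays in every group, 12 of 12. Each probe binds with its own strength, so levels are compared between groups for 1 gene and not between genes. Changes come from limma on all 12 arrays, with the SE of the fit and two-sided adjusted p-values over all genes tested, called under 0.05.

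All 10 genes were higher in both CNS groups than in naive cells and than in cultured Th17 cells. For none of them was a difference between the CNS groups called. Outside the CNS the genes followed different courses. Lgals3, Trem2, Gpnmb, Axl, Lpl and Apoc2 were already higher in cultured Th17 cells than in naive cells, Apoe was lower there, and Cd36, Gas6 and Mertk stayed at or near background.

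**Figure D1:**
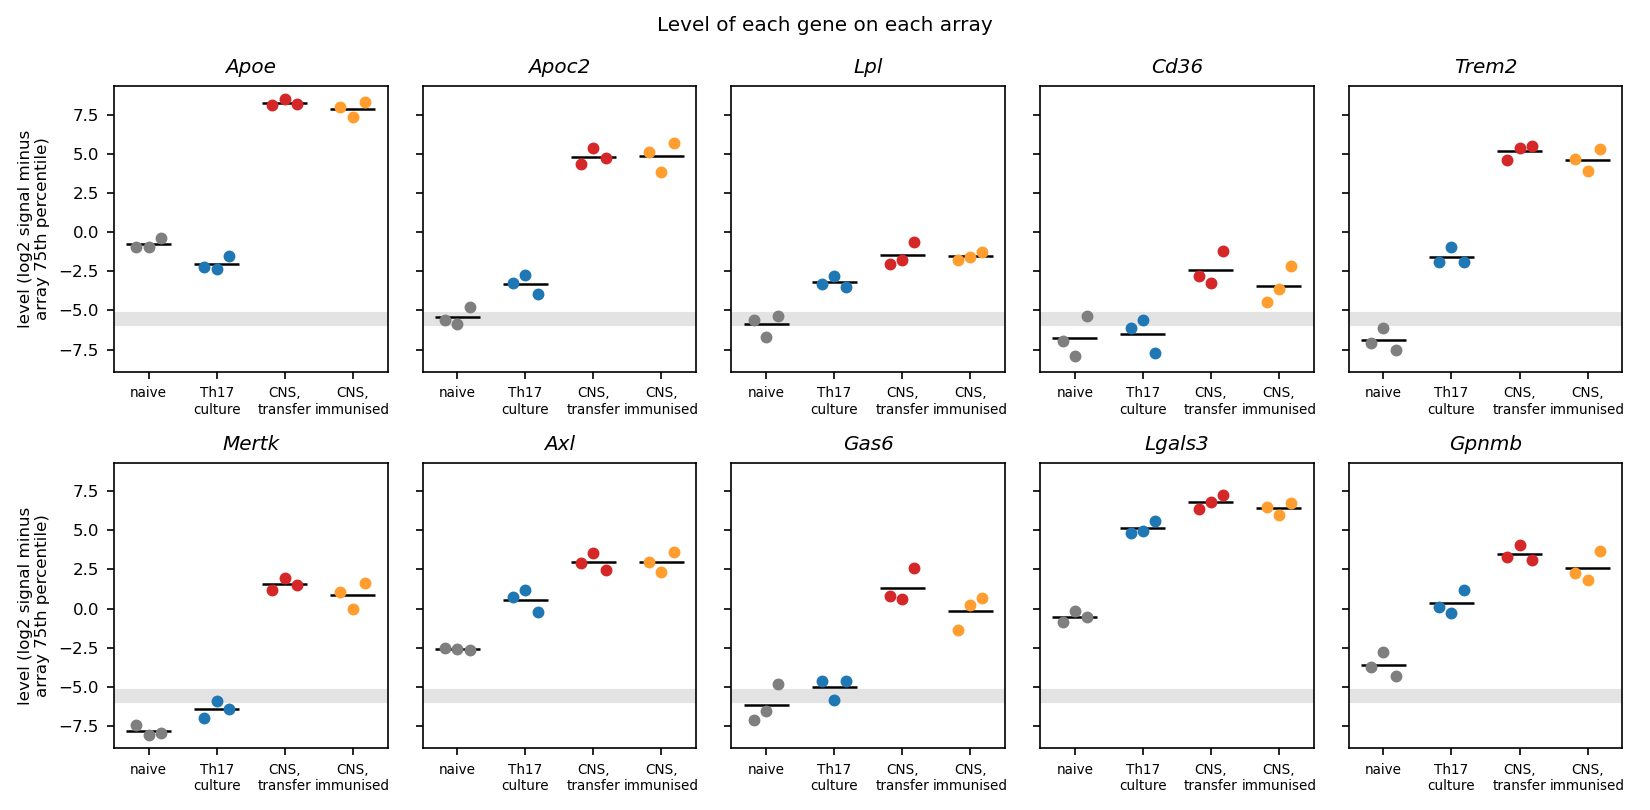
Level of each of the 10 genes on each of the 12 arrays (y axis, log2 signal minus the array's 75th percentile) by group (x axis); points are arrays in replicate order, black lines are group means, and the grey band is the range of the dimmest signals well above background. In every panel the 6 CNS points lie above all 6 others, and the 2 CNS groups overlap.

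Among the lipid genes, Apoe changed most between culture and CNS. Its level was −0.95, −0.96 and −0.35 in naive cells, −2.21, −2.37 and −1.51 in culture, 8.11, 8.5 and 8.15 after transfer, and 7.96, 7.32 and 8.32 after immunisation. The naive and culture arrays did not overlap, culture being the lower, and all CNS arrays were far above both. Apoe fell by 1.28 ± 0.31 (log2, SE) from naive to culture (limma adjusted p = 0.00768). It was 10.28 ± 0.31 higher after transfer than in culture, a 1240-fold difference (limma adjusted p = 1.03e-07). The order was CNS after transfer and after immunisation, which overlapped (limma adjusted p = 0.518), then naive, then culture.

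Apoc2, whose product switches lipoprotein lipase on, rose in 2 steps. Its level was −5.59, −5.87 and −4.78 in naive cells, where 1 of 3 arrays was well above background, and −3.22, −2.76 and −3.97 in culture. It was 4.33, 5.35 and 4.72 after transfer and 5.13, 3.84 and 5.69 after immunisation. The 4 groups fell into 3 tiers that did not overlap, with the CNS groups sharing the top one. The change was 2.09 ± 0.5 from naive to culture (at least 3.83-fold, limma adjusted p = 0.00729) and a further 8.12 ± 0.5 from culture to the CNS after transfer (4.57e-06), the latter 278-fold. The first of these was lost with another background correction (0.73, limma adjusted p = 0.172).

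Lpl itself, the enzyme that frees fatty acids from lipoproteins, made a smaller second step than its cofactor gene. Its level was −5.6, −6.7 and −5.36 in naive cells (1 of 3 arrays well above background), −3.32, −2.79 and −3.48 in culture, −2.01, −1.76 and −0.63 after transfer, and −1.77, −1.59 and −1.25 after immunisation. Lpl was 2.69 ± 0.42 higher in culture than in naive cells (at least 4.78-fold, limma adjusted p = 0.000574) and 1.72 ± 0.42 higher after transfer than in culture (0.0119), a 3.3-fold difference. The immunised group was 1.65 ± 0.42 above culture (limma adjusted p = 0.0128), and without immunised replicate 3 this was 1.51 at adjusted p = 0.0501. The other Lpl probe, printed above, was dimmer in all groups and gave changes of 2.26 from naive to culture, 1.6 and 1.65 from culture to the immunised and transfer groups, and −0.05 between the CNS groups.

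Cd36 had the widest spread between replicates of the lipid genes. Its level was −6.95, −7.89 and −5.38 in naive cells, −6.14, −5.64 and −7.73 in culture, −2.81, −3.26 and −1.18 after transfer and −4.46, −3.62 and −2.16 after immunisation. In each of the first 2 groups 1 of 3 arrays was well above background, and the groups overlapped, with a difference of 0.24 ± 0.83 (limma adjusted p = 0.843). All 6 CNS arrays were above both. The fitted change from culture was 4.08 ± 0.83 after transfer (limma adjusted p = 0.00496) and 3.09 ± 0.83 after immunisation (0.0178). With the dim culture arrays raised to the dimmest signal well above background, these were at least 9.73-fold and at least 4.88-fold. The second rested on single arrays: it was 2.47 without culture replicate 3 (limma adjusted p = 0.0606) and 2.46 without immunised replicate 3 (0.0723). Under normexp background correction the immunised group's Cd36 was 0.9 above culture and 0.88 above naive cells, neither called (limma adjusted p = 0.113 and 0.0913).

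Trem2 went from below background in naive cells to high levels in the CNS. Its level was −7.05, −6.12 and −7.5 in naive cells, below background on all 3 arrays, and −1.92, −0.95 and −1.89 in culture, above it on all 3. It was 4.62, 5.34 and 5.5 after transfer and 4.66, 3.92 and 5.29 after immunisation. Culture was at least 15.8-fold above naive cells (limma adjusted p = 1.25e-05), and the CNS groups at least 1690-fold after transfer and at least 1170-fold after immunisation. These bounds set the naive arrays at the dimmest signal well above background. From culture to the CNS after transfer Trem2 rose by a further 6.74 ± 0.45 (limma adjusted p = 7.29e-06).

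Mertk, a receptor kinase for apoptotic cells, was not well above background on any naive or culture array. Its level was −7.46, −8.09 and −7.97 in naive cells and −6.98, −5.87 and −6.41 in culture. It was 1.21, 1.96 and 1.49 after transfer and 1.05, 0 and 1.62 after immunisation, so no CNS array came near the others. The CNS after transfer was at least 160-fold above culture and at least 140-fold above naive cells, and the immunised group at least 101-fold and at least 88.1-fold (limma adjusted p between 2.48e-07 and 2.35e-06). The limma fit also called culture above naive cells (adjusted p = 0.0195), but both groups were below background, so no fold is given. That call was lost without naive replicate 2 (0.0596), naive replicate 3 (0.0582) or culture replicate 2 (0.0699), and under normexp correction (0.635).

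Axl, the related kinase, was by contrast above background on all 12 arrays. Its level was −2.54, −2.58 and −2.64 in naive cells, 0.76, 1.18 and −0.19 in culture, 2.93, 3.54 and 2.49 after transfer and 3, 2.33 and 3.62 after immunisation. The 3 tiers did not overlap. Axl rose by 3.17 ± 0.41 from naive to culture, 8.99-fold (limma adjusted p = 0.000173), and by 2.4 ± 0.41 from culture to each of the CNS groups, 5.29-fold after transfer (0.00175) and 5.28-fold after immunisation (0.00152). The larger of its 2 steps on the log2 scale thus lay between naive cells and culture, where the Mertk probe was below background in both.

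Gas6, the bridging ligand of both kinases, was near background outside the CNS. Its level was −7.1, −6.54 and −4.83 in naive cells (1 of 3 arrays well above background), −4.59, −5.82 and −4.64 in culture, 0.81, 0.61 and 2.57 after transfer and −1.34, 0.21 and 0.65 after immunisation. Naive and culture arrays overlapped and differed by 1.14 ± 0.74 (limma adjusted p = 0.245). From culture Gas6 rose by 6.35 ± 0.74 after transfer, 81.3-fold (limma adjusted p = 0.00016), and by 4.85 ± 0.74 after immunisation, 28.9-fold (0.000761).

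Of the 10 genes, Lgals3 had the largest fitted rise from naive to culture and the smallest from culture to the CNS. Its level was −0.85, −0.14 and −0.54 in naive cells, 4.86, 4.93 and 5.57 in culture, 6.37, 6.78 and 7.24 after transfer and 6.48, 6 and 6.74 after immunisation. Lgals3 rose by 5.63 ± 0.3 in culture, 49.7-fold (limma adjusted p = 7.07e-07). The CNS groups were a further 1.67 ± 0.3 (adjusted p = 0.00246) and 1.28 ± 0.3 (0.00896) higher in limma, with no overlap with the culture arrays. Both ranks were close. Trem2 rose by 5.31 ± 0.45 in culture, from naive arrays not well above background, and Lpl by 1.72 ± 0.42 from culture to transfer.

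Gpnmb showed the same tiers with wider spread. Its level was −3.7, −2.74 and −4.28 in naive cells, 0.1, −0.27 and 1.21 in culture, 3.32, 4.08 and 3.13 after transfer and 2.28, 1.84 and 3.65 after immunisation. It rose by 3.92 ± 0.56 in culture (15.1-fold, limma adjusted p = 0.000332). From there it rose by 3.16 ± 0.56 after transfer (0.0022) and by 2.24 ± 0.56 after immunisation (0.0121, limma).

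Counted over the 10 genes, culture against naive cells gave 7 higher, 1 lower and 2 not called, where 19.7% of all genes tested were called higher and 20.4% lower. The 7 include Mertk, which was not well above background on any array of either group. The calls of Mertk and Apoc2 there were lost under normexp correction. Both CNS groups against naive cells gave 10 of 10 higher, against 21.2% of all genes after transfer and 20.6% after immunisation. Both CNS groups against culture also gave 10 of 10, against 12.8% and 13.7%. In these 4 comparisons the arrays of the groups did not overlap for any of the 10, as was so for 25.7%, 26.2%, 17.5% and 19.6% of all genes in the same direction. The median change of the 10 was 2.39 from naive to culture, 5.21 from culture to transfer and 3.97 from culture to immunisation, where the medians over all genes were −0.08, −0.1 and −0.17. These comparisons share the naive or the culture arrays, so their counts are not independent of each other. The 10 genes were also chosen with earlier results of these data known. Their counts and medians thus describe the set and do not test it against all genes. Mertk and Cd36 passed the filter through the CNS groups alone, where they were high. The filter thus favoured their calls in the 4 comparisons of a CNS group with naive cells or culture.

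**Figure D2:**
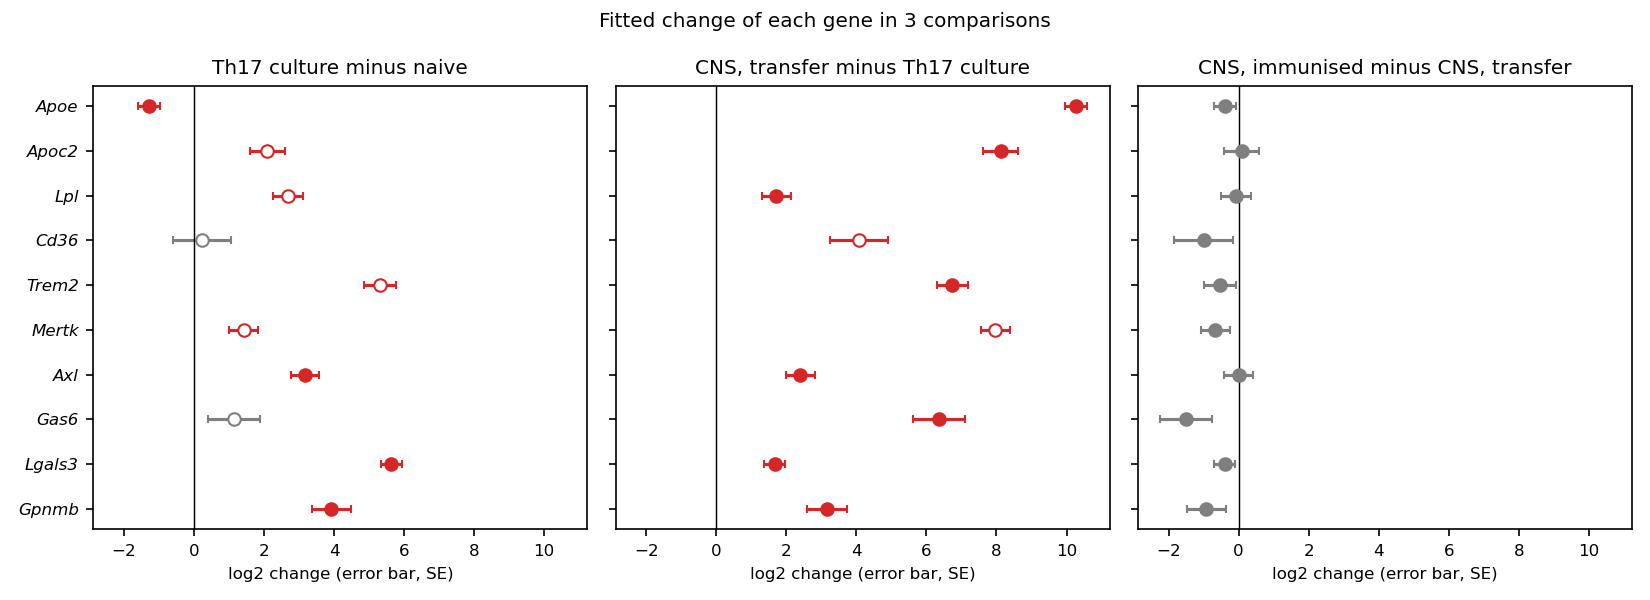
Fitted log2 change with its SE (x axis) of each gene (y axis) in 3 comparisons; red points were called at an adjusted p under 0.05 and grey points were not, and open points mark genes below background on at least 1 array of the groups compared. The left panel runs from −1.28 for Apoe to 5.63 for Lgals3, the middle panel from 1.67 for Lgals3 to 10.28 for Apoe, and in the right panel all 10 lie between −1.49 and 0.09.

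Between the CNS groups the labels differ in host, in T cell receptor and in whether cells had been cultured. None of the 10 genes was called there (0 of 10 by limma, also 0 at an unadjusted p under 0.05), where 3.22% of all genes were. The arrays overlapped for all 10. The differences, immunised minus transfer, ran from −1.49 for Gas6 (95% interval −3.12 to 0.14, limma adjusted p = 0.29) to 0.09 for Apoc2 (−1.02 to 1.2, 0.944). For Apoe the interval was −1.07 to 0.3, for Trem2 −1.53 to 0.47, for Mertk −1.58 to 0.25 and for Axl −0.91 to 0.9. A difference of nearly 2-fold either way thus lies within the interval for Axl, and larger ones lie within those for Gas6 and Cd36 (−2.84 to 0.85).

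On 3 of the 6 CNS arrays the 10 genes lay mostly to 1 side of their group means. Immunised replicate 3 was above its group mean for 10 of 10 genes, by 0.7 on average, and immunised replicate 2 for 1 of 10, with a mean of −0.49. Transfer replicate 1 was above its group mean for 0 of 10 (−0.36). The other CNS arrays were mixed, with 6 of 10 above for transfer replicate 2 and immunised replicate 1 and 5 of 10 for transfer replicate 3. In naive cells and in culture, 3 to 6 of the 10 were above the group mean on each array. Over the 45 pairs of genes, Pearson's r across the 12 arrays ran from 0.66 to 0.99 with a median of 0.9. With the group means taken out, over the same 12 arrays, it ran from −0.44 to 0.84 with a median of 0.31, above 0 in 37 pairs. These correlations describe arrays that share their groups and slides.

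The listed markers of macrophages and monocytes, taken as a sum, moved with these genes. On the array were 17 of the 18 listed, and their summed normalised signal (log2) was 0.97 to 1.32 in naive cells, 3.35 to 4.87 in culture, 8.45 to 9.23 after transfer and 8.21 to 9.54 after immunisation. Within the CNS groups it was highest in immunised replicate 3 (9.54) and lowest in immunised replicate 2 (8.21). Of the transfer arrays it was lowest in replicate 1 (8.45). These arrays also stood apart for the 10 genes, but the match was partial. Transfer replicate 2 had the highest sum of its group (9.23), with the 10 genes 0.06 from their group mean, against 0.3 in replicate 3 (9.06). In culture replicate 3 the sum was 3.35, against 4.68 and 4.87, with the 10 genes at −0.1. Of the 16 tested, 10 were called higher in culture than in naive cells, where 19.7% of all genes were. In the CNS after transfer 15 were higher and 1 lower than in culture (Ccr2, a chemokine receptor that Th17 cells also carry). The shares over all genes were 12.8% and 15.5% there. C1qa, C1qc and Cd163 were below background on all 3 culture arrays, while 11 of the 17 were above it on all 3. In the same step C1qa rose at least 2010-fold and Csf1r by 5.97 ± 0.28 (limma adjusted p = 3.49e-06 and 1.21e-06). Itgam, an integrin gene also used as a macrophage marker, was not in this list but among the engulfment genes below. Its mean level was highest in naive cells, at 5.54, against 4.23 in culture, 3.28 after transfer and 4.16 after immunisation. The summed T cell core signal was 9.2 to 9.47 in naive cells, 9.36 to 9.56 in culture, 8.4 to 8.84 after transfer and 8.68 to 9.26 after immunisation. Of the 12 T cell core genes, 5 were called lower and 0 higher after transfer than in culture, where 15.5% of all genes were lower. Against naive cells 7 were lower and 0 higher. There 8890 of all 18631 genes were called, 44.4% of them higher and the rest lower.

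Of 10 microglia markers, 8 were called higher and 1 lower (Selplg, from 4.91 to 4.01) after transfer than in culture. Of all genes 12.8% were higher and 15.5% lower. Among the higher were P2ry12 (at least 37.9-fold), Sall1 (at least 6.38-fold) and Tmem119 (4.03 ± 0.43), at limma adjusted p = 0.000244, 0.000142 and 9.24e-05. P2ry12, P2ry13 and Sall1 were below background on all culture arrays. The list's summed signal was 6.74 to 7.23 in naive cells, 6.83 to 7.08 in culture and 7.18 to 7.43 in the CNS groups. Naive and CNS arrays thus overlapped in this sum, with Siglech and Selplg well above background in all groups. After transfer 5 of 7 dendritic cell, 6 of 10 neutrophil and 5 of 7 astrocyte markers were also called higher than in naive cells. Of these lists 0, 2 and 0 were lower, and 21.2% of all genes were higher. Against culture the same lists gave 4, 6 and 2 higher and 0, 1 and 1 lower, with a median change of −0.12 for the astrocyte list. The mean levels of its Aldoc and Gja1 were 5.64 and −1.53 in culture and 2.53 and −2.5 after transfer. Neutrophil markers differed between the CNS groups as well, 4 of 10 being higher after immunisation, with a median change of 4.05. Of all genes 3.22% were called there in either direction. In RNA of a bulk cell isolate, more cells of a type and more RNA per cell cannot be told apart. The part that such markers' cells have in the levels of the 10 genes was not tested.

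**Figure D3:**
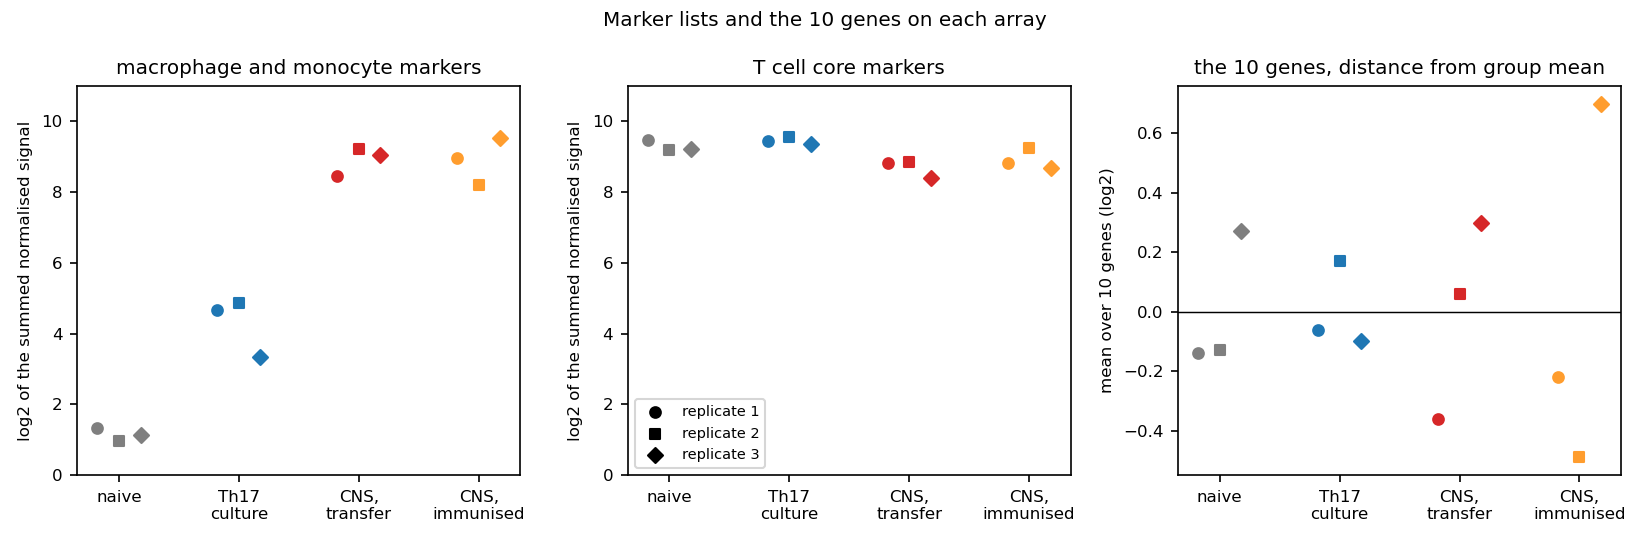
Log2 of the summed normalised signal of the macrophage and monocyte markers (left) and of the T cell core markers (middle) on each array, and the mean distance of the 10 genes from their group mean on each array (right, log2); marker shapes give the replicate. The macrophage sum climbs from 0.97 to 1.32 in naive cells to 8.21 to 9.54 in the CNS groups while the T cell sum is 9.2 to 9.56 outside the CNS and 8.4 to 9.26 in it, and immunised replicate 3 is the highest on the left and on the right.

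Genes whose level was most like that of a member over the 12 arrays were picked as the 3 highest Pearson r per member. For Apoe they were C1qa (0.995), 0610040J01Rik (0.995) and Ly86 (0.993), for Apoc2 Cd74 (0.999), Fcgr4 (0.999) and Sirpb1b (0.997), and for Mertk they included Csf1r (0.997) and Camk1 (0.996). Trem2 was closest to Ltbr (0.996), Cd300c2 (0.994) and P2ry6 (0.993), Axl to Pla2g7 (0.996), Dpep2 (0.993) and Grn (0.991), and Gpnmb to C3 (0.986), Lrrk1 (0.979) and H2-DMb2 (0.977). Lgals3, which was high in culture, was closest to Olfm1 (0.996), Scpep1 (0.995) and Itgb5 (0.994). Gas6 was closest to 1700101I11Rik (0.981), Ccl7 (0.978) and Fam149a (0.975), Lpl to 3110027N22Rik (0.986), Mapk3 (0.985) and Bag3 (0.985), and Cd36, the least well matched, to Fam76a (0.968), Ap4m1 and Plpp3 (0.966 each). With 4 groups of 3, these values mainly reflect the order of the group means.

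Other genes of the same pathways moved less uniformly. Their counts stand against 19.7% higher and 20.4% lower of all genes in culture against naive cells, and 12.8% and 15.5% after transfer against culture. Of 14 other apolipoproteins, 8 were tested. In culture 3 were higher than in naive cells and 1 lower, led by the acute-phase apolipoprotein Saa3 (at least 20.5-fold, limma adjusted p = 0.00111) and Clu, or clusterin (at least 2.46-fold, 0.00547). After transfer 4 were higher than in culture and 1 lower. The neighbours of Apoe and Apoc2 in the gene cluster, Apoc1 and Apoc4, were below background on all culture arrays and at least 137-fold and at least 24.3-fold higher after transfer (limma adjusted p = 2.16e-06 and 1.57e-06). Apoc4 was also the 1 apolipoprotein called between the CNS groups, where it was 2.47 ± 0.32 lower after immunisation (log2 change −2.47, limma adjusted p = 0.00267). Apoa1, Apoa4, Apob, Apof and Apoh were below background on all 12 arrays.

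Of 24 genes of lipoprotein uptake, efflux and lipid storage, 14 were higher and 2 lower in culture than in naive cells. They included the fatty acid carriers Fabp4 (at least 108-fold) and Fabp5 (5.4 ± 0.49), the apoE receptor Vldlr (at least 49.6-fold) and the lipid droplet coat Plin2 (4.24 ± 0.57), at limma adjusted p = 0.000144, 2.03e-05, 0.00257 and 0.000234. For Fabp4 and Vldlr 1 of 3 naive arrays was well above background. From culture to the CNS after transfer, 11 were higher and 3 lower. Another apoE receptor, Lrp1 (5.01 ± 0.56), the sterol sensor Nr1h3 or LXR-alpha (4.1 ± 0.58) and the cholesterol exporter Abca1 (4.1 ± 0.73) rose, and Vldlr fell, to at least 63.5-fold lower with 1 of 3 transfer arrays below background (limma adjusted p = 0.000128, 0.000579, 0.00231 and 0.00575). The median change of the list was 0.59 there, and that of the 10 genes was 5.21. Both sets were chosen with earlier results of these data known, so nothing is concluded from the gap between the medians.

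Of 23 tested genes for the recognition and engulfment of apoptotic cells, 10 were higher and 2 lower in culture than in naive cells. Over all genes the shares were 19.7% and 20.4%. After transfer 5 were higher and 5 lower than in culture, against 12.8% and 15.5% of all genes. The scavenger receptor Stab1 (at least 146-fold), the phosphatidylserine receptor Havcr1 or TIM-1 (at least 39.4-fold) and the integrin subunit Itgb5 (at least 133-fold) rose in culture (limma adjusted p = 7.57e-06, 7.79e-07 and 4.49e-07). So did Pros1, another ligand of MerTK (at least 24.9-fold, limma adjusted p = 1.13e-05). For Pros1 and Itgb5, 2 of 3 naive arrays were above background. The bridging protein gene Thbs1 rose by 7.6 ± 0.61 from culture to the CNS after transfer and Cd300lf by 4.03 ± 0.61, while Havcr1 fell, to at least 25.5-fold lower with 2 of 3 transfer arrays below background (limma adjusted p = 2.02e-05, 0.000918 and 2.3e-05). Timd4 (TIM-4) was below background on all 12 arrays.

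Among 10 genes of the TREM family and DAP12 signalling, 3 were higher and 2 lower in culture than in naive cells, close to the shares over all genes. Tyrobp, which encodes the TREM2 adaptor DAP12, rose by 2.44 ± 0.43 in culture and by 5.5 ± 0.43 from there to the CNS after transfer (limma adjusted p = 0.00124 and 1.6e-05), and the kinase gene Syk by 1.68 ± 0.39 and 3.95 ± 0.39 (0.00649 and 6.51e-05). In that second step 6 were higher and 1 was lower. Trem3 was the 1 gene of this list called between the CNS groups, 1.68 ± 0.4 higher after immunisation (limma adjusted p = 0.0492). Of 6 tested galectins besides Lgals3, 2 were higher and 2 lower in culture, and 2 were higher and 1 lower from there to the CNS after transfer. Lgals1 rose by 3.35 ± 0.26 in culture, as Lgals3 did, and fell by 1.03 ± 0.26 from culture to the CNS after transfer, where Lgals3 rose (limma adjusted p = 7.09e-06 and 0.0147).

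**Figure D4:**
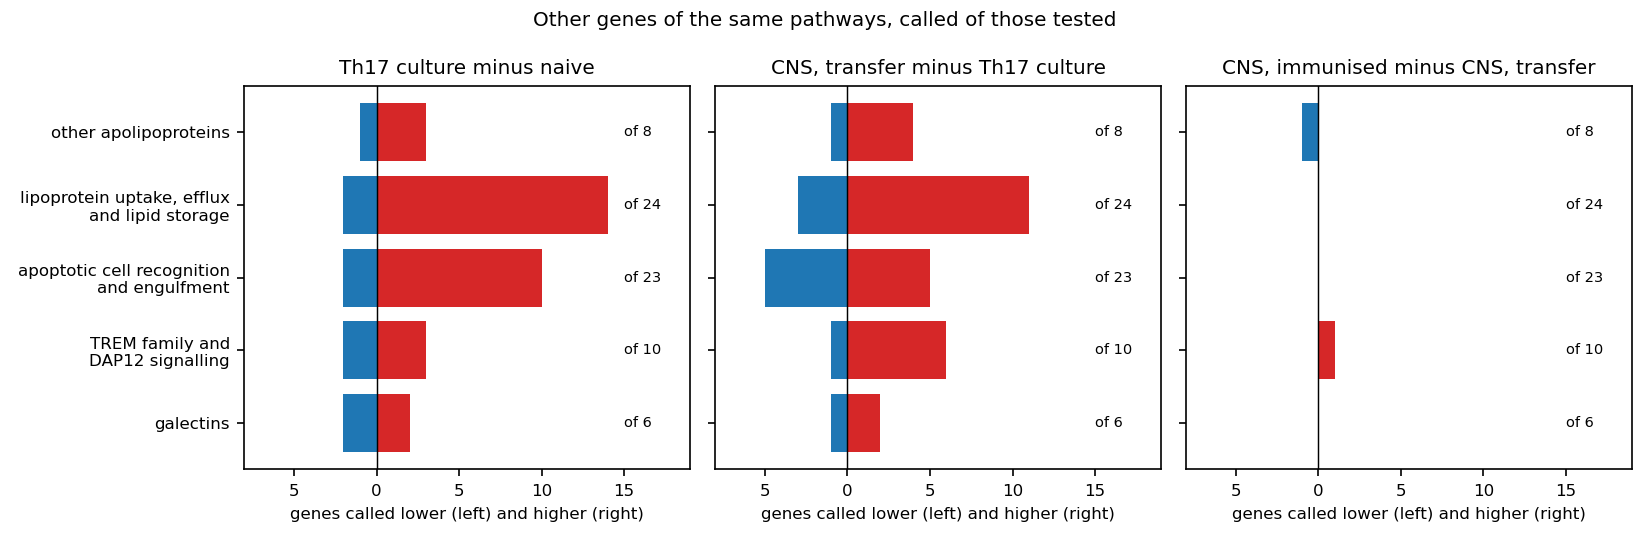
Number of genes called lower (blue, left of 0) and higher (red, right of 0) at an adjusted p under 0.05 in 5 pathway lists (y axis) and 3 comparisons, with the number tested at the right of each panel. The lipid list has 14 higher of 24 in culture, the engulfment list 5 higher and 5 lower of 23 after transfer, and the right panel holds 2 called genes in all.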

How the data were processed

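Total RNA, 100 ng per sample, was labelled with Cy3 and hybridised to 1-colour Agilent arrays, per the labels' protocols. Per the file headers, Agilent Feature Extraction (version 10.7.3.1, GE1_107_Sep09 settings) made the deposited intensity values, and probe coordinates are those of mm9. The authors also deposited a matrix of intensity values whose normalization is not given in the sources used here, and it served as an alternative. No file holds counts, so the number of arrays limits the precision.

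Outlier and control spots were left out, spots of a probe averaged, and each array's 75th percentile (a signal of 658 to 940) subtracted on the log2 scale. Genes were named through RefSeq accessions and symbols, and each was represented by its brightest probe. All 12 arrays entered 1 model in limma 3.58.1 (R 4.3.3, with data.table of version 1.17.8), with 8 residual and 2.485 prior degrees of freedom and Benjamini-Hochberg adjustment over 18631 genes. The fit was tested on simulated data. Figures were drawn with matplotlib 3.10.9, pandas 2.3.3 and numpy 2.4.6 in Python 3.11.15.

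Where arrays of a group were below background, a fold given as "at least" is a lower bound, computed with each such array at its dimmest signal well above background or at the probe's own signal if higher. Nothing in the labels says that replicates of a group came from separate animals beyond the separate experiments. Each of 3 slides held 1 array per group. Alternatives were other normalizations, background corrections, filters, probe rules, priors and thresholds, the slide as a block, the 6 arrays of a pair alone, and leaving out each array. The 10 genes, the pathway and marker lists and the naming rule were chosen with earlier results of these data known. All 10 genes were named, as were the 3 genes most like each, up to 4 called genes of each list and comparison, and markers below background. Of the genes this rule names, 1 is not reported here.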

Additional observations from a re-analysis of the deposited data

How the results depend on the processing

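Over 26 alternatives, the count of called genes among the 10 stayed within 1.5 times its value in each of the 6 comparisons. With each array left out in turn it was 7 to 8 in culture against naive cells, 8 to 10 in the immunised group against culture, 10 in the other comparisons with a CNS group, and 0 between the CNS groups. Of 1560 values of single genes, 1531 kept their direction and side of the threshold, 15 lost the call and 14 turned in sign. All that turned were uncalled differences. Between the CNS groups Apoe was 0.023 with quantile normalization and 0.021 in the deposited matrix (−0.39 as reported), and Axl was 0.033 with median scaling and 0.042 with normexp (0 as reported). Cd36 was −0.015 in culture against naive cells with normexp, against 0.24. With single arrays left out, the difference between the CNS groups ran from −0.31 to 0.61 for Apoc2, −0.32 to 0.32 for Axl and −0.34 to 0.35 for Lpl, and Cd36 in culture against naive cells from −0.33 to 0.92. An adjusted p under 0.01 removed the calls of Cd36, Gpnmb and Lpl in the immunised group against culture (0.0178, 0.0121 and 0.0128), of Lpl after transfer against culture (0.0119) and of Mertk in culture (0.0195).

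Normexp, which adds an offset of 50, shrank changes of genes dim in 1 group: Mertk after transfer against culture was 4.98 against 7.97, Trem2 in culture against naive cells 2.02 against 5.31, and Lpl there 0.84 against 2.69, each still called by limma (adjusted p = 2.63e-06, 0.00106 and 0.0364). Median scaling moved the median over all genes from −0.08 to 0.03 in culture against naive cells and from −0.1 to −0.21 after transfer against culture, and turned no called gene of the 10. The backgrounds moved more. Genes called between the CNS groups were 600, but 371 without a filter on dim probes, 185 at an adjusted p under 0.01, and 201 to 1258 with single arrays left out, the highest without culture replicate 3 and the lowest without immunised replicate 1. After transfer against culture 5267 genes were called, but 3313 with the 6 arrays alone and 2687 at an adjusted p under 0.01. In the other comparisons an adjusted p under 0.01 left 4710 of 7464 genes in culture and 3278 of 5861 in the immunised group against culture.

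Replicate numbers are also slides. Deviations of same-numbered arrays correlated at −0.198 to 0.204 over 18 pairs, over 0.1 in 4. With 3 arrays per group these values cannot decide whether samples were paired by experiment. The main fit did not pair them. With the replicate block the counts of called genes among the 10 were 8 in culture against naive cells, 10 in the CNS groups against either, and 0 between them, as without it, and all genes called in culture were 7169 in place of 7464. Signal over background limits Cd36, Gas6, Lpl and Apoc2 in naive cells, where 1 of 3 arrays was above it, and Trem2 and Mertk, for which folds are bounds.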
